A study of Mus musculus with 8 samples.

Results

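Cholesterol synthesis genes were examined in splenic CD4 T cells of mice with and without Ahr, the gene of the aryl hydrocarbon receptor, which switches on transcription when a ligand binds it. The set was 8 enzyme genes (Hmgcs1, Idi1, Fdps, Fdft1, Sqle, Cyp51, Sc5d and Dhcr7), taken as every probe set whose array annotation gives one of these symbols as its only gene. That gave 19 probe sets out of 22626 tested, a probe set being a group of short probes for a transcript region. All 8 act in synthesis and none in uptake of cholesterol.

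The 4 groups, with 2 arrays each, were Ahr knockout (KO) mice given TCDD, KO mice given DMSO, wild-type (WT) mice given TCDD and WT mice given DMSO. The KO line was backcrossed to C57BL/6, the strain of the WT mice, and the labels do not say which part of the gene is missing. All mice were females 8 to 12 weeks old, injected into the peritoneum with 10 µg/kg TCDD, a high-affinity ligand of the receptor, or with DMSO, both in corn oil, and killed 24 h later. CD4 T cells were sorted by flow cytometry, and each MOE430A array carried RNA from 4 pooled animals, so an array averages 4 mice. Values are log2 expression levels on which 1 unit is a doubling.

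Cholesterol is built from acetyl units. The mevalonate arm (Hmgcs1, Idi1, Fdps) makes isoprenoids, which also feed protein prenylation, and the committed arm (Fdft1, Sqle, Cyp51, Sc5d, Dhcr7) turns farnesyl diphosphate into squalene and then into sterols. The transcription factor SREBP2, encoded by Srebf2, turns these genes on together when membrane sterol falls. T cells raise the pathway when they are activated and grow.

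Some arrays call for care. The WT TCDD replicate 1 array is titled and sourced as wild type, but its free-text description names the knockout. The WT arrays numbered 2 lay apart from the other 6 on the first principal component (49.2 for DMSO and 40.4 for TCDD, against −36.2 to 9.10). Their actin 3′ minus 5′ log2 difference, a measure of RNA integrity, was the lowest, at 2.90 and 3.30. It was highest on WT TCDD replicate 1, at 4.56, and 3.48 to 3.82 on the remaining arrays. A lower difference means that the 5′ end of the transcript read closer to the 3′ end. Of 8 probe sets for CD4 T cell markers 0 were called, 3 being higher and 5 lower in KO. The brightest, 1422828_at of Cd3d, averaged 9.97 ± 0.18 on the KO arrays and 9.96 ± 0.23 on the WT arrays (SD, n = 4 each), while the list's extreme KO minus WT differences were those of Cd5 (0.90; limma, adjusted p = 0.0644) and 1437025_at of Cd28 (−1.10; limma, adjusted p = 0.0727). Of 13 probe sets for myeloid and dendritic markers 7 were called higher in KO and 0 lower, and their mean level ran from 7.19 to 7.71 on KO arrays and from 6.26 to 6.38 on WT arrays. That WT range includes WT TCDD replicate 1, whose mean over these 13 probe sets thus lay with the other WT arrays and below every KO array. These markers do not read Ahr, and the calls counted this array as WT, so its genotype was not tested by them. By KO minus WT difference the 7 are those of Irf8 (1416714_at, 2.97, and 1448452_at, 0.96), Tyrobp (2.49), Cd68 (1.87), C1qb (1437726_x_at, 1.85, and 1434366_x_at, 1.74) and Csf1r (1419872_at, 1.27). Of 10 probe sets for proliferation genes 4 were called higher, with mean levels of 6.71 to 6.84 in KO and 6.06 to 6.45 in WT, the called differences being Cdk1 (0.81), Birc5 (0.56), Mcm5 (0.44) and Plk1 (0.38). Of 6 probe sets for NK and CD8 T cell markers 1 was called, Nkg7 (difference 1.38). None of the 6 for B cell markers (brightest 1419768_at of Cd22, difference 0.19) or of the 2 for red cell markers (brighter Alas2, difference 0.40) was called. Their part in the results for the sterol enzymes was not tested, and fewer cells of a type and less RNA per cell cannot be told apart in such pools.

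Between KO and WT, 1 of the 8 genes had a called probe set, which is 1 of 19 against 2.79% of all tested probe sets. The call was lost in 9 of 20 alternative fits. Dhcr7, which encodes the reductase that converts 7-dehydrocholesterol to cholesterol in the last step of the pathway, was lower in KO. Cyp51 and Sc5d, which act earlier in the committed arm, read lower on all 5 of their probe sets without passing. All 4 probe sets of Fdft1, squalene synthase, read higher without passing. Apart from 1448130_at (0.44), the Fdft1 differences were 0.05 to 0.15. Each of those passed 0 on leaving out some single array, as did that of Cyp51 1422533_at (−0.09). Of the 19 probe sets 1 was called, lower in KO, where 2.79% of all tested probe sets were called, 1.2% lower and 1.59% higher (limma, Benjamini-Hochberg adjusted p under 0.05). The median KO minus WT difference was −0.09 over the 19 probe sets, 12 of which were negative, and −0.01 over all tested probe sets, 51.2% of which were negative.

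**Figure D1:**
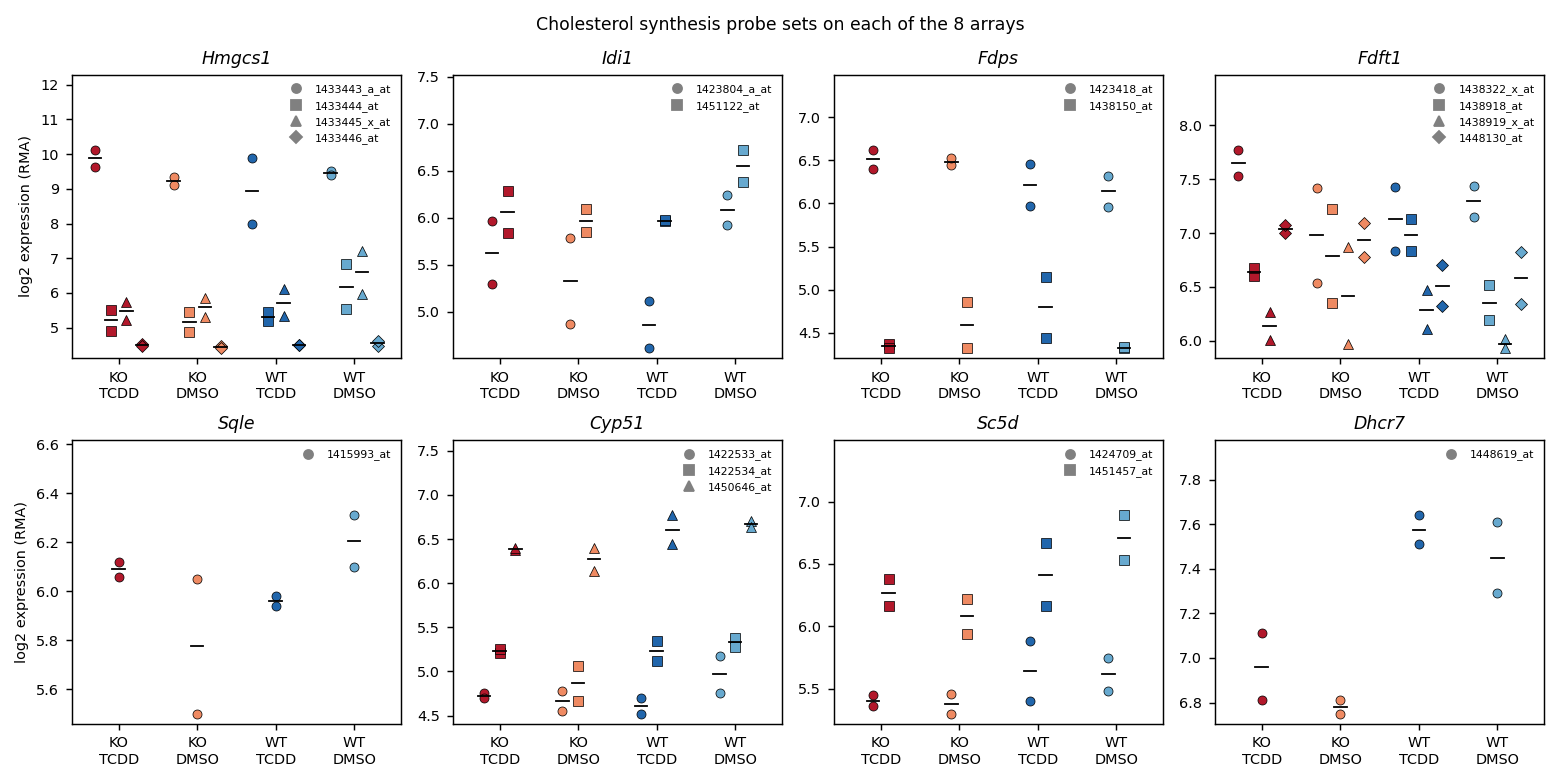
Log2 expression (vertical axis, RMA) of each probe set of the 8 genes on each array, by genotype and treatment. A point is 1 array, symbols tell probe sets of a gene apart, and bars are means of 2 arrays. The KO points of Dhcr7 (6.75 to 7.11) all lie below its WT points (7.29 to 7.64), whereas most other probe sets overlap.

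Dhcr7 (probe set 1448619_at) read 6.81 and 7.11 on the KO TCDD arrays and 6.81 and 6.75 on the KO DMSO arrays, against 7.64 and 7.51 on the WT TCDD arrays and 7.29 and 7.61 on the WT DMSO arrays. The genotypes did not overlap, and the highest KO array was KO TCDD replicate 2. The mean was 6.87 ± 0.16 over the KO arrays and 7.51 ± 0.16 over the WT arrays (SD, n = 4 each), which is a difference of −0.64 (SE 0.11, 95% interval −0.90 to −0.39), or 0.641 times the WT level (limma, adjusted p = 0.0307). An exact permutation test, two-sided, gave p = 0.0286, the lowest value that 70 arrangements can reach. Any probe set without overlap gets this value, and 12.3% of all probe sets had no overlap, so it adds nothing to the ranges. The difference was −0.62 among TCDD arrays and −0.67 among DMSO arrays, so it had the same sign and a similar size in each treatment, but with 2 arrays against 2 it was not called in either (limma, adjusted p = 0.271 and 0.685). It was −0.60 without WT TCDD replicate 1, still called (limma, adjusted p = 0.0475). Without both WT arrays numbered 2 it was again −0.60 and not called (limma, adjusted p = 0.171), and with the actin difference as a covariate it was −0.64 (limma, adjusted p = 0.0197). The call was also lost on leaving out any 1 of KO DMSO replicate 1, KO DMSO replicate 2, KO TCDD replicate 1, WT DMSO replicate 2 or WT TCDD replicate 2 (limma, adjusted p from 0.0516 to 0.0921), with differences of −0.64 to −0.60, and in the model of 4 group means (limma, adjusted p = 0.0707).

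Sequences upstream of the start sites are shown for the 5 of 8 genes found in the RefSeq promoter table (build GRCm38.p6), because these genes are known as common targets of SREBP2 and the receptor removed in KO is known to bind a GCGTG core. Each run is the 250 bases before a start, 5′ to 3′ on the gene's strand. Capitals mark CCAAT (or ATTGG), the letters bound by NF-Y, a factor that works beside SREBP2 at sterol genes, and GCGTG (or CACGC).
Hmgcs1, chr13:119690101-119690350, plus strand: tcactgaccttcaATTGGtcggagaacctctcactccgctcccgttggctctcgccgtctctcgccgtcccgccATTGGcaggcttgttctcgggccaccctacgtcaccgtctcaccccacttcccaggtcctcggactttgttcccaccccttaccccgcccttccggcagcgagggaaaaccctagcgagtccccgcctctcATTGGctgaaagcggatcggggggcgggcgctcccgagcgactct
Idi1, chr13:8885356-8885605, plus strand: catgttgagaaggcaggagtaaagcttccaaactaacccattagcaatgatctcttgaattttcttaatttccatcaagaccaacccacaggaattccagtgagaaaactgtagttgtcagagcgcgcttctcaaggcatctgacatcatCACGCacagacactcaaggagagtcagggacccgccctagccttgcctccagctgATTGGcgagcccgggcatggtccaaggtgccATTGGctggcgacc
Cyp51, chr5:4104698-4104947, minus strand: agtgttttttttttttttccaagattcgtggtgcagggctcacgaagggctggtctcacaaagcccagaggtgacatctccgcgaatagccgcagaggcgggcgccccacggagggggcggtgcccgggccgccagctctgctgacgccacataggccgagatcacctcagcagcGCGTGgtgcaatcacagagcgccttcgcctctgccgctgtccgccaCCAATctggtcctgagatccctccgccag
Sc5d, chr9:42264301-42264550, minus strand: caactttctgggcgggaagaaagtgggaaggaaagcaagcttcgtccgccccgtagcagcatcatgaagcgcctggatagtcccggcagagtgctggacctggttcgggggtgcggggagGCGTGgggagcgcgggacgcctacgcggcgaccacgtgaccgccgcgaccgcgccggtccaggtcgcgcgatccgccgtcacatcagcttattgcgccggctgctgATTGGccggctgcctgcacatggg
Dhcr7, the most downstream of its 3 starts, chr7:143829964-143830213, plus strand: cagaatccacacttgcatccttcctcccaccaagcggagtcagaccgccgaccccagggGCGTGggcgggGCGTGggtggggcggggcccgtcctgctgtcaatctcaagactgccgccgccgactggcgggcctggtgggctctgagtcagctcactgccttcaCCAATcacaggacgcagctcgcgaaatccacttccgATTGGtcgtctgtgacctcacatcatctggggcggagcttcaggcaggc

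Read on both strands, CCAAT occurred in all 5 of these windows, 3 times for Hmgcs1, 2 times each for Idi1 and Dhcr7 and 1 time each for Cyp51 and Sc5d, and in 33.85% of the 32851 windows of this length in the table. GCGTG occurred 2 times in the Dhcr7 window, 1 time each for Idi1, Cyp51 and Sc5d and 0 times for Hmgcs1, and in 28.2% of all windows. The other 2 Dhcr7 windows, at its upstream starts, held neither, so the window printed for Dhcr7 is the only 1 of its 3 with a match. Over all 7 windows of these genes, CCAAT was in 5 and GCGTG in 4. A sterol-element core, TCACNCCAC, was found only for Hmgcs1 among these genes (1.05% of all windows), and the E-box CACGTG for Sc5d and for the middle start of Dhcr7 (6.02% of all windows). TCACNCCAC contains CACGC where its N is G, and none of the other 3 motifs contains another. These are matches of letters in a window, and no binding was measured.

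In the mevalonate arm no probe set was called. Hmgcs1 encodes the cytosolic synthase that makes HMG-CoA, and its 4 probe sets did not read alike. On 1433443_a_at it read 9.63 and 10.12 on KO TCDD and 9.34 and 9.12 on KO DMSO arrays, against 9.90 and 7.99 on WT TCDD and 9.51 and 9.39 on WT DMSO arrays. A single WT array, TCDD replicate 2, lay far below the others, and the difference of 0.36 (SE 0.40; limma, adjusted p = 0.676) became −0.05 without it. On 1433445_x_at it read 5.22 and 5.74 on KO TCDD and 5.86 and 5.32 on KO DMSO arrays, against 5.33 and 6.10 on WT TCDD and 5.98 and 7.21 on WT DMSO arrays, a difference of −0.62 (SE 0.36; limma, adjusted p = 0.376). Here WT DMSO replicate 2 stood highest, and without it the difference was −0.27. Probe set 1433444_at differed by −0.57 (SE 0.34), and by −0.21 without the same array. The dim 1433446_at, between 4.40 and 4.61 on every array, differed by −0.05. The suffix x marks probe sets with probes that may bind other transcripts, and the suffix a those shared by transcripts of 1 gene.

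Idi1 encodes the isomerase that makes dimethylallyl diphosphate. Its probe set 1451122_at read 5.84 and 6.28 on KO TCDD and 6.09 and 5.85 on KO DMSO arrays, against 5.96 and 5.98 on WT TCDD and 6.38 and 6.72 on WT DMSO arrays. The genotypes overlapped, and the 2 WT DMSO arrays were the highest (difference −0.25, SE 0.18; limma, adjusted p = 0.511). The difference was −0.09 without WT DMSO replicate 2, and 0.09 among TCDD arrays and −0.58 among DMSO arrays. The other, 1423804_a_at, ranged from 4.87 to 5.96 in KO and from 4.61 to 6.24 in WT and averaged nearly the same (5.48 ± 0.49 and 5.47 ± 0.74; SD, n = 4 each).

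Fdps encodes farnesyl diphosphate synthase. On 1423418_at it read 6.40 and 6.62 on KO TCDD and 6.44 and 6.53 on KO DMSO arrays, against 5.97 and 6.46 on WT TCDD and 5.96 and 6.32 on WT DMSO arrays. The WT arrays numbered 1 lay lowest and WT TCDD replicate 2 overlapped the KO arrays. The difference was 0.32 (SE 0.13; limma, adjusted p = 0.199), and it was 0.53 without both WT arrays numbered 2 (limma, adjusted p = 0.117). The dim probe set 1438150_at differed by −0.09 and lay between 4.32 and 5.15 on all arrays.

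At the entry to sterol synthesis, Fdft1 joins farnesyl units to squalene. Its probe set 1448130_at read 7.00 and 7.07 on KO TCDD and 7.09 and 6.78 on KO DMSO arrays, against 6.70 and 6.32 on WT TCDD and 6.82 and 6.34 on WT DMSO arrays. The genotypes overlapped only through KO DMSO replicate 2 and WT DMSO replicate 1, and the difference of 0.44 (SE 0.13) did not pass (limma, adjusted p = 0.114). It was 0.23 without both WT arrays numbered 2 (limma, adjusted p = 0.452), the arrays where it was lowest. The other 3 probe sets differed by 0.05 to 0.15. They disagreed on KO DMSO replicate 2, which was the lowest of all arrays on 1438322_x_at (6.54) and the highest on 1438918_at (7.22) and 1438919_x_at (6.87).

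Sqle encodes squalene epoxidase, a rate-limiting step of the sterol arm. Its 1 probe set, 1415993_at, read 6.12 and 6.06 on KO TCDD and 6.05 and 5.50 on KO DMSO arrays, against 5.94 and 5.98 on WT TCDD and 6.10 and 6.31 on WT DMSO arrays. KO DMSO replicate 2 was lowest and WT DMSO replicate 2 highest, and the groups overlapped (difference −0.15, SE 0.15; limma, adjusted p = 0.640). The 95% interval ran from −0.49 to 0.19, and the difference was −0.006 without KO DMSO replicate 2 and −0.07 without WT DMSO replicate 2.

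Further along, Cyp51 encodes the demethylase that acts on lanosterol. On 1450646_at it read 6.38 and 6.40 on KO TCDD and 6.40 and 6.14 on KO DMSO arrays, against 6.77 and 6.44 on WT TCDD and 6.71 and 6.64 on WT DMSO arrays. All KO arrays lay below all WT arrays, the nearest being 6.40 in KO and 6.44 in WT. Dhcr7 and this probe set were the 2 of 19 without overlap, both with KO below, where 6.67% of all probe sets had KO below, 5.67% had KO above and 12.3% did not overlap in either direction. The Cyp51 difference was −0.31 (SE 0.10, 95% interval −0.54 to −0.08) and did not pass (limma, adjusted p = 0.127). Its exact two-sided permutation p was 0.0286, the value that any probe set without overlap gets. Leaving out WT TCDD replicate 1 gave −0.27, and leaving out both WT arrays numbered 2 gave −0.41, neither called (limma, adjusted p = 0.180 and 0.184). The other 2 Cyp51 probe sets, both dimmer than the median probe set, differed by −0.09 (1422533_at) and −0.24 (1422534_at). Without WT DMSO replicate 2 the first was 0.04, and without KO DMSO replicate 2 the second was −0.11.

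Sc5d encodes the sterol desaturase that makes 7-dehydrocholesterol, the substrate of the enzyme that Dhcr7 encodes. On 1451457_at it read 6.16 and 6.38 on KO TCDD and 6.22 and 5.94 on KO DMSO arrays, against 6.16 and 6.67 on WT TCDD and 6.53 and 6.89 on WT DMSO arrays. WT TCDD replicate 1, the array described as knockout, lay among the KO arrays, and the other 3 WT arrays lay above them. The difference was −0.39 (SE 0.16; limma, adjusted p = 0.215). On 1424709_at, where WT TCDD replicate 1 was instead the highest array (5.88), it was −0.24 (SE 0.12; limma, adjusted p = 0.296).

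**Figure D2:**
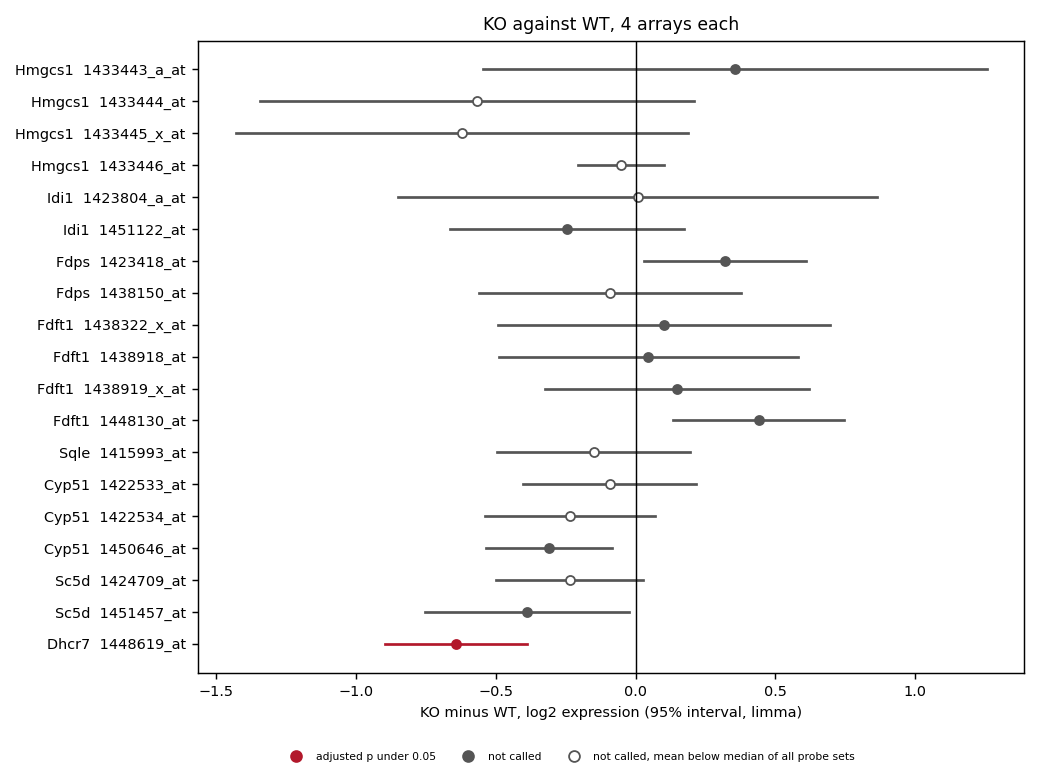
KO minus WT difference in log2 expression (horizontal axis) for each of the 19 probe sets, with its 95% interval from limma, 4 arrays per genotype. Open points have a mean below the median probe set. The Dhcr7 interval (−0.90 to −0.39) is the 1 in the called colour, and the widest interval is that of Hmgcs1 1433443_a_at (−0.55 to 1.26).

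At an unadjusted p under 0.05, 5 of the 19 probe sets differed between genotypes (limma), 3 lower in KO (Dhcr7, Cyp51 1450646_at and Sc5d 1451457_at) and 2 higher (Fdft1 1448130_at and Fdps 1423418_at), where 20.5% of all tested probe sets did, 11.3% lower and 9.19% higher. Leaving out any 1 array moved the difference by less than 1.5 times for these 5, and by more, or past 0, for at least 1 array left out in each of the other 14. A low p itself picks differences that are large against the spread between arrays, so this contrast was partly fixed in advance. Apart from Dhcr7, none of the 5 passed adjustment. Of the 19 probe sets, 9 had a mean below 6.13, the median over all probe sets. Background can compress differences on dim probe sets, and whether it did so here was not tested.

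No probe set of the 8 genes was called after TCDD, in either genotype. In KO 0 of 19 probe sets were called, with 0 at an unadjusted p under 0.05, and in WT 0 of 19 were called, with 2 at an unadjusted p under 0.05 (limma; called were 0% of all probe sets in both, and 1.69% in KO and 2.79% in WT were under the unadjusted threshold). Both of the 2 in WT belonged to Idi1. The median TCDD minus DMSO difference over the 19 probe sets was 0.09 in KO and −0.10 in WT, against 0.03 in both genotypes over all probe sets. Of the 19, 15 were higher after TCDD in KO, where 57.7% of all probe sets were, and 13 were lower after TCDD in WT, where 44.1% of all probe sets were. Single arrays moved these counts, since the number lower in KO was 4 with all arrays, 8 without KO TCDD replicate 2 and 7 without KO DMSO replicate 2. The number under the unadjusted threshold in KO was 5 without KO DMSO replicate 1. In WT it was 0 when the second DMSO array or the second TCDD array was left out, and 5 when the first DMSO array was.

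In WT, Idi1 1423804_a_at read 5.11 and 4.61 after TCDD and 5.92 and 6.24 after DMSO, a difference of −1.22 (SE 0.37, n = 2 arrays each; limma, unadjusted p = 0.0139, adjusted p = 0.997). Idi1 1451122_at read 5.96 and 5.98 after TCDD and 6.38 and 6.72 after DMSO, a difference of −0.58 (SE 0.19; limma, unadjusted p = 0.0218, adjusted p = 0.997). Both TCDD arrays lay below both DMSO arrays on both probe sets, and also on Hmgcs1 1433444_at, Sqle and Cyp51 1422533_at. On Fdps 1438150_at, Fdft1 1438918_at and Fdft1 1438919_x_at both TCDD arrays lay above. The share of all probe sets so separated was not computed. The Idi1 probe sets were singled out by p on these same values, so their separation adds nothing to it. Without WT TCDD replicate 1 the Idi1 differences were −1.47 and −0.57, and without WT TCDD replicate 2 they were −0.97 and −0.59. With the first DMSO array left out they were −1.38 and −0.75, and with the second −1.06 and −0.41. In KO, 1423804_a_at read 5.30 and 5.96 after TCDD and 5.78 and 4.87 after DMSO, a difference of 0.31, and 1451122_at differed by 0.09. The effect in KO minus that in WT was 1.53 for 1423804_a_at (limma, unadjusted p = 0.0233, adjusted p = 0.998) and 0.67 for 1451122_at (limma, unadjusted p = 0.0467, adjusted p = 0.998). These were the 2 of 19 probe sets under the unadjusted threshold for this difference between genotypes, 0 were called, and 2.78% of all probe sets were under that threshold. Their number ran from 0 (without KO DMSO replicate 2, KO TCDD replicate 2 or WT DMSO replicate 2) to 8 (without KO DMSO replicate 1), and was 5 with the first WT DMSO array left out, 3 with the first WT TCDD array and 1 with the second.

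For Hmgcs1 the WT effect was −0.51 on 1433443_a_at, −0.87 on 1433444_at and −0.88 on 1433445_x_at, with intervals that all included 0. Each rested on single arrays: that of 1433443_a_at was −1.46 without the first WT TCDD array and 0.45 without the second, and that of 1433445_x_at was −0.27 without WT DMSO replicate 2. Dhcr7 differed by 0.18 in KO (95% interval −0.20 to 0.56) and 0.13 in WT (−0.26 to 0.51) after TCDD, and the TCDD and DMSO arrays met (6.81 in KO) or overlapped (WT).

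**Figure D3:**
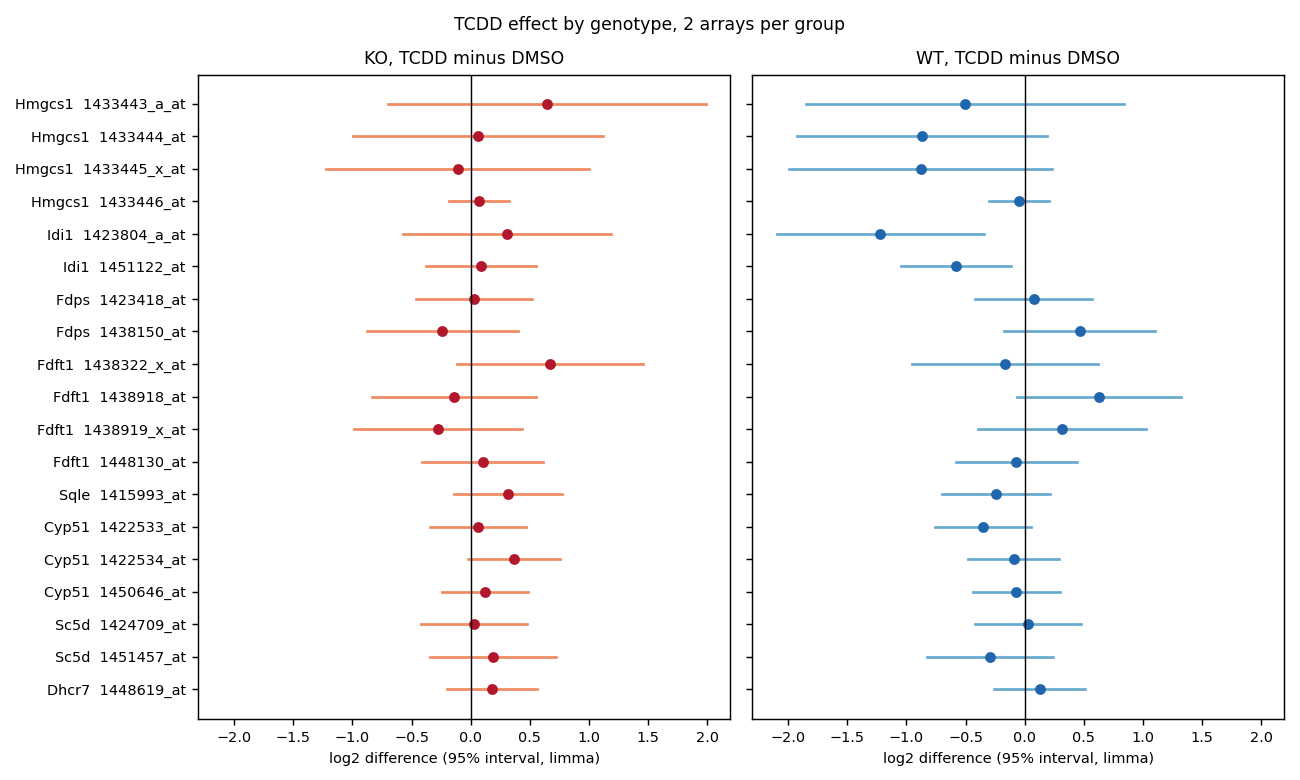
TCDD minus DMSO difference in log2 expression (horizontal axes) for each probe set in KO (left) and WT (right), with 95% intervals from limma and 2 arrays per group. The intervals of both Idi1 probe sets in WT lie below 0 (−1.22 and −0.58 at their centres). All others include 0.

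The rest of the sterol pathway was taken as 6 lists with 66 probe sets for 35 genes. Of the 66, 1 was called higher and 1 lower in KO, where 2.79% of all tested probe sets were called, 1.59% higher and 1.2% lower. Among other mevalonate enzymes (9 probe sets) and other sterol enzymes (10 probe sets) 0 were called, with median differences of 0.08 and −0.07. The brightest probe sets of these lists were 1419805_s_at of Ggps1, which makes geranylgeranyl diphosphate (7.73 ± 0.10 in KO and 7.61 ± 0.28 in WT), and that of Lbr, the lamin B receptor with sterol reductase activity (9.04 ± 0.40 and 9.86 ± 0.62; SD, n = 4 each; limma, adjusted p = 0.180). The other Ggps1 probe sets read lower in KO, by −0.81 on 1419506_at (limma, adjusted p = 0.147), −0.32 on 1429356_s_at and −0.22 on 1419505_a_at. Among the regulators of SREBP 0 of 10 were called, with a median of −0.28 and 8 negative. Srebf1, the related factor SREBP1, had a mean of 8.73 ± 0.29 in KO and of 8.42 ± 0.27 in WT (SD, n = 4 each). Among fatty acid synthesis genes driven by SREBP 0 of 19 were called, with a median of 0.01, and 1439459_x_at of Acly, ATP citrate lyase, read 10.51 ± 0.26 and 10.46 ± 0.43 in KO and WT (SD, n = 4 each).

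Both calls fell in the lists for uptake, transport and efflux. Lipa encodes the lysosomal acid lipase that frees cholesterol from ingested esters, and its probe set 1450872_s_at read 7.65 and 7.57 on KO TCDD and 7.54 and 7.24 on KO DMSO arrays, against 8.73 and 8.92 on WT TCDD and 8.34 and 9.0 on WT DMSO arrays. Every KO array lay below every WT array, and the difference was −1.25 (SE 0.16; limma, adjusted p = 0.0102). It was −1.04 and not called without both WT arrays numbered 2 (limma, adjusted p = 0.0835). Of its other 2 probe sets, 1423140_at differed by −0.53 and 1423141_at by −0.08, and neither passed (limma, adjusted p = 0.116 and 0.741). Apoe encodes apolipoprotein E, a lipid carrier made in abundance by macrophages, and read 7.72 and 7.82 on KO TCDD and 7.27 and 7.39 on KO DMSO arrays, against 5.83 and 6.90 on WT TCDD and 6.04 and 6.47 on WT DMSO arrays. All KO arrays lay above all WT arrays, with a difference of 1.24 (SE 0.23; limma, adjusted p = 0.0362). The call was lost with treatment as an additive term (limma, adjusted p = 0.0579), in the model of 4 group means (limma, adjusted p = 0.0780) and on leaving out any 1 of KO DMSO replicate 2, KO TCDD replicate 1, KO TCDD replicate 2, WT DMSO replicate 1 or WT DMSO replicate 2 (limma, adjusted p from 0.0601 to 0.113). The myeloid markers given above were also higher on the KO arrays, among them Cd68 (mean 7.05 ± 0.33 in KO, against 5.18 ± 0.14 in WT; SD, n = 4 each), and their part in the Apoe difference was not tested.

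Of the 66 probe sets 7 separated the genotypes, where 12.3% of all probe sets did. Beside the 2 called, these were Lipa 1423140_at (given above), 1431385_a_at of Mbtps1, the site-1 protease that cleaves SREBP (4.39 to 4.55 in KO and 4.58 to 4.90 in WT; difference −0.21), and 3 with adjusted p under 0.1. The 1426744_at probe set of Srebf2 read 6.69 to 6.78 on 3 KO arrays and 6.51 on KO DMSO replicate 2, against 6.93 to 7.15 in WT (difference −0.35; limma, adjusted p = 0.0699), and the other Srebf2 probe set differed by −0.05. Tm7sf2, a sterol reductase of the same arm as Dhcr7, read 7.49 to 8.05 in KO and 7.05 to 7.25 in WT (difference 0.53; limma, adjusted p = 0.0667). The 1421840_at probe set of Abca1, the cholesterol exporter, read 6.64 to 7.19 in KO and 7.52 to 8.80 in WT (difference −1.24; limma, adjusted p = 0.0582), and its other 2 probe sets differed by 0.08 and 0.09.

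**Figure D4:**
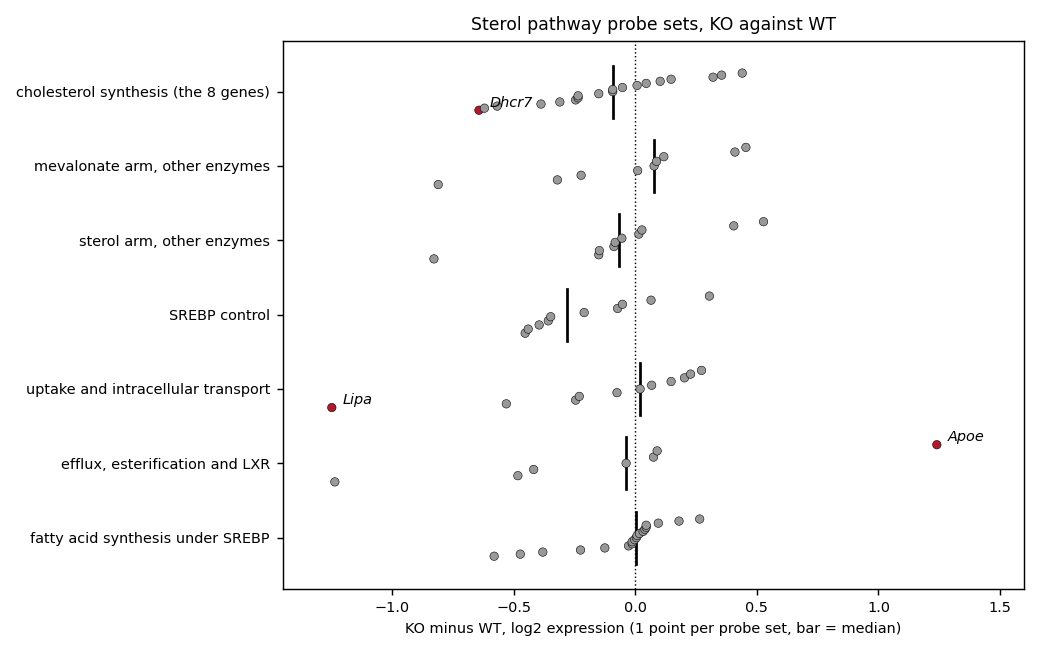
KO minus WT difference in log2 expression (horizontal axis) for probe sets of the 8 genes and of the 6 other sterol lists, 1 point per probe set, with the median of each list as a bar. Called probe sets are coloured: Dhcr7 (−0.64), Lipa (−1.25) and Apoe (1.24).

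The brightest probe sets of the 8 genes did not follow each other closely from array to array. With the brightest probe set of each gene centred on its own mean, their average ran from −0.35 on KO DMSO replicate 2 to 0.23 on WT DMSO replicate 2, with −0.01 and 0.17 on the KO TCDD arrays, −0.05 on KO DMSO replicate 1, 0.08 and −0.16 on the WT TCDD arrays and 0.09 on WT DMSO replicate 1. Pearson's r over the 8 arrays was above 0 for 17 of the 28 pairs of genes, and ran from −0.85 (Fdps with Cyp51) to 0.79 (Cyp51 with Dhcr7). Probe sets of the same gene also disagreed, with r below 0 for 7 of their 18 pairs and from −0.74 to 0.97. The brightest of Fdft1, 1438322_x_at, had r of −0.62 with 1438918_at, −0.74 with 1438919_x_at and 0.56 with 1448130_at. Low r between genes and disagreement between probe sets cannot be told apart here. All arrays share the normalization, and r over 8 arrays that differ in genotype and RNA integrity is given as a description. Outside the set, the 5 probe sets most like the average were those of Gmcl1, Stx17, Ppp1r11, Ltbp3 and Zfp142, with r of 0.98, 0.97, 0.96, 0.96 and 0.95 over the 8 arrays. Of 20361 candidate probe sets, 67 had r above 0.9, and none of the 5 was called between genotypes (limma, adjusted p from 0.531 to 0.774).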

How the data were processed

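Gene expression was measured on 8 MOE430A arrays of CD4 T cells, 2 per genotype and treatment. The deposited log2 values were made by the authors using affy's RMA, as the submitters' processing notes list. Neither version is given in the sources used here. Per the labels' protocols, RNA was amplified with the Ambion MessageAmp kit. Of 22690 probe sets 64 controls were left out. Groups came from sample titles; no pair of arrays shared over 2.85% of values.

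KO was compared with WT as 4 against 4, pooling treatments as the series' design text does. TCDD effects and their difference between genotypes came from a model of 4 group means. All fits used limma 3.58.1 (R 4.3.3) over all 22626 probe sets with Benjamini-Hochberg adjustment, calling adjusted p under 0.05, after tests on simulated data. Every probe set of the 8 genes is named. Of the other lists, marker lists included, called probe sets and, where none was called, the brightest are named, and others only where singled out after their values were seen; and by likeness the 5 probe sets with the highest r. The genes, lists and alternatives were chosen with earlier results of these data known. Per the series' design text, duplicates are biological. Precision is limited by the number of arrays. Alternatives were another quantile normalization, median centring, leaving out dim probe sets, trend and robust eBayes, array weights, a replicate block, each array left out, other models and subsets, and an actin covariate.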

Additional observations from a re-analysis of the deposited data

Results flagged for a closer look

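Among the 38 sets of 4 arrays (19 probe sets in each genotype), 5 held an array far from the other 3, where chance gives about 1 in 20. In 3 of them it was KO DMSO replicate 2: Fdps 1438150_at read 4.86 there, against 4.32 to 4.37 on the other KO arrays, Sqle read 5.50 against 6.05 to 6.12, and Cyp51 1450646_at read 6.14 against 6.38 to 6.40. WT TCDD replicate 2 read 5.15 on Fdps 1438150_at, against 4.32 to 4.44 on the other WT arrays. KO TCDD replicate 2 read 7.11 on Dhcr7, against 6.75 to 6.81 on the other KO arrays.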

How the results depend on the processing

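The number of the 19 probe sets called between KO and WT (1, Dhcr7) was 0 in the model of 4 group means, from DMSO arrays alone, from TCDD arrays alone and without both WT arrays numbered 2 (limma), with 4, 3, 2 and 4 at an unadjusted p under 0.05. It ranged from 0 to 1 when each array was left out, and was 1 in the other 8 alternatives. Dhcr7 kept its sign in all 20 alternatives (−0.72 to −0.50) and its call in 11. The other 18 probe sets were not called in any alternative, and 10 of the 19 changed sign in at least 1. Over all probe sets the number called was 631, and 0 to 1834 under the alternatives. TCDD effects and their difference between genotypes gave 0 calls among the 19 in all 14 alternatives each. The replicate numbers are not stated to pair animals, and deviations of same-numbered arrays correlated from −0.29 to 0.63 between groups. With the replicate block the number called between KO and WT was 1, and 0 for each of the other 3 comparisons. With 2 arrays per group, the TCDD tests called 0 of all probe sets. In WT, Idi1 1423804_a_at at −1.22 was not called (limma, adjusted p = 0.997). The WT interval of the bright Hmgcs1 1433443_a_at ran from −1.85 to 0.84. Small TCDD effects, and some above 1 log2 unit, could thus go uncalled on dim or bright probe sets.

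None of the values that changed sign was called, and the cause was not tested. With each array left out, the KO minus WT difference that passed 0 ran for Hmgcs1 1433443_a_at −0.048 to 0.59, Idi1 1423804_a_at −0.28 to 0.26, Fdps 1438150_at −0.22 to 0.10 and Fdft1 1438322_x_at −0.049 to 0.36. It ran for Fdft1 1438918_at −0.12 to 0.20, Fdft1 1438919_x_at −0.049 to 0.26 and Cyp51 1422533_at −0.18 to 0.035. The TCDD effect in WT ran for Hmgcs1 1433443_a_at −1.46 to 0.45, Hmgcs1 1433446_at −0.11 to 0.02, Fdps 1423418_at −0.17 to 0.32 and Fdft1 1438322_x_at −0.47 to 0.14. It ran for Fdft1 1448130_at −0.31 to 0.17, Cyp51 1422534_at −0.21 to 0.02, Cyp51 1450646_at −0.23 to 0.095 and Sc5d 1424709_at −0.21 to 0.27. It ran for Dhcr7 1448619_at −0.035 to 0.28. The TCDD effect in KO ran for Hmgcs1 1433444_at −0.24 to 0.36, Hmgcs1 1433445_x_at −0.38 to 0.16, Idi1 1423804_a_at −0.15 to 0.76 and Idi1 1451122_at −0.13 to 0.31. It ran for Fdps 1423418_at −0.085 to 0.14, Fdps 1438150_at −0.51 to 0.03, Fdft1 1438918_at −0.58 to 0.29 and Fdft1 1438919_x_at −0.73 to 0.17. It ran for Fdft1 1448130_at −0.055 to 0.26, Cyp51 1422533_at −0.055 to 0.17, Cyp51 1450646_at −0.01 to 0.25 and Sc5d 1424709_at −0.055 to 0.10. The difference of these effects, KO minus WT, ran for Fdps 1423418_at −0.29 to 0.20, Fdft1 1448130_at −0.07 to 0.41, Sc5d 1424709_at −0.24 to 0.24 and Dhcr7 1448619_at −0.10 to 0.21. From DMSO arrays alone the KO minus WT difference was −0.22 for Hmgcs1 1433443_a_at, −0.76 for Idi1 1423804_a_at, 0.26 for Fdps 1438150_at and −0.32 for Fdft1 1438322_x_at. Without both WT arrays numbered 2 the KO minus WT difference was −0.15 for Hmgcs1 1433443_a_at, −0.037 for Idi1 1423804_a_at, 0.09 for Fdps 1438150_at and −0.12 for Fdft1 1438322_x_at. From TCDD arrays alone the KO minus WT difference was 0.005 for Hmgcs1 1433446_at, 0.09 for Idi1 1451122_at, −0.34 for Fdft1 1438918_at, −0.15 for Fdft1 1438919_x_at, 0.13 for Sqle 1415993_at and 0.12 for Cyp51 1422533_at. With array weights the KO minus WT difference was −0.000282 for Idi1 1423804_a_at. With another quantile normalization the TCDD effect in WT was −0.017 for Sc5d 1424709_at. With median centring the TCDD effect in WT was −0.01 for Sc5d 1424709_at. With another quantile normalization the difference of effects was 0.04 for Sc5d 1424709_at and −0.052 for Dhcr7 1448619_at. With median centring the difference of effects was 0.015 for Sc5d 1424709_at.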
